A study of Mus musculus with 4 samples.

Results

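The 10 Sox factor genes that act in neurons and glia (Sox1, Sox2, Sox4, Sox5, Sox6, Sox8, Sox9, Sox10, Sox11 and Sox21) were examined in the layer of the mouse hippocampus for H3K27ac, the acetylated form of lysine 27 in histone H3 that is found at promoters and enhancers in use. The genes were taken by name from the GENCODE M21 annotation, as 10 of 21951 protein-coding genes. Every deposited peak in the body of a member or within 100 kb of it was counted. This gave 158 of the 88930 peaks in the list replicated between pools. Chromatin immunoprecipitation came from 4 samples of adult male B6CASTF1/J mice aged 2 months, an F1 hybrid of the C57BL/6 and CAST strains. Pool C and pool D each joined 7 biosamples and were sequenced as 2 technical replicates. All samples formed 1 group, so there is no contrast between conditions and no test over samples, and the spread is given as the values of the pools.

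SOX proteins share a DNA-binding domain, the HMG box, which bends DNA at short motifs such as ACAATG. The SoxB1 factors Sox1 and Sox2 keep neural stem cells undifferentiated, and Sox21 of subgroup SoxB2 counteracts them. The SoxC factors Sox4 and Sox11 act in newborn neurons, and the SoxD factors Sox5 and Sox6, which lack a transactivation domain, modulate the activity of other SOX factors in neurons and oligodendrocyte precursors. Of the SoxE factors, Sox9 acts in stem cells and astrocytes, Sox10 in the oligodendrocyte lineage, and Sox8 overlaps with both. In the adult hippocampus, stem cells and newborn neurons are restricted to the dentate gyrus.

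Each peak carries a signal that the authors assigned, and it was ranked only within its list, as a percentile of all peaks of that list. The pool C list held 94836 peaks and the pool D list 63623, and the bp covered by the pool D list were 0.525 of those covered by the pool C list. Read totals are unknown, so a peak found in a single pool is one that was not detected in the other at its depth. The replicated list comes from both pools and adds no further measurement. The tissue label was checked with marker genes: promoter peaks were present at 6 of 6 hippocampal neuron markers, 5 of 5 astrocyte markers and 3 of 3 microglial markers, and at 0 of 6 markers of other brain regions. Peaks were present at 2 of 3 oligodendrocyte precursor markers (Cspg4 and Olig2) and at 2 of 4 interneuron markers (Gad1 and Gad2). These counts are from the replicated list, in which 61.6% of coding genes had a promoter peak. In pool D they were 1 of 3 precursor markers, without Cspg4, 1 of 4 interneuron markers, without Gad2, and 2 of 3 microglial markers. Peaks also marked 3 of 3 endothelial markers and 2 of 2 choroid plexus or ependymal markers. The tissue is a mixture of cell types, in which fewer cells of a type and less acetylation per cell cannot be told apart.

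Start regions are shown for the member of each subgroup with the strongest promoter peak among those that have a promoter entry, and for a Sox6 start with no peak, because the CpG content of the starts with and without a peak can be read from the letters. The sequences are RefSeq promoters of build GRCm38.p6, read 5′ to 3′ on the strand of the gene and ending at or just before the annotated start, with each CG in capitals. The Sox2 start in RefSeq lies 410 bp from that in GENCODE. Sox9 and Sox10 were not matched.
Sox2 (chr3:34649745-34649994, plus strand): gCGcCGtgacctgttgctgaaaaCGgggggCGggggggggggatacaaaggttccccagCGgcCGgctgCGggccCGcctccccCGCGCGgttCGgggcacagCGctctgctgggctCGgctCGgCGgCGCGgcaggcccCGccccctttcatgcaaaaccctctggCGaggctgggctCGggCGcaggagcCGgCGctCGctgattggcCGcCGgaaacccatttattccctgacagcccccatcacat
Sox21 (chr14:118237031-118237280, minus strand): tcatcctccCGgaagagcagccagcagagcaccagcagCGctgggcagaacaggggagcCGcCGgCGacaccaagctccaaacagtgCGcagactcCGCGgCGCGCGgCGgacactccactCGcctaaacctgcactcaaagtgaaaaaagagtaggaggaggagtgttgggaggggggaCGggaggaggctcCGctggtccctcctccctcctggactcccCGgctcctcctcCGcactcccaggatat
Sox4 (chr13:28953714-28953949, minus strand): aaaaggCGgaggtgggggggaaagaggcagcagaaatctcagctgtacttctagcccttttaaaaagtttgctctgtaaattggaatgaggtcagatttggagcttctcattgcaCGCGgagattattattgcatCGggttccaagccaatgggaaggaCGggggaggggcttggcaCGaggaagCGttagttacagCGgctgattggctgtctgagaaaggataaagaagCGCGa
Sox6, start with a peak (chr7:116031048-116031297, minus strand): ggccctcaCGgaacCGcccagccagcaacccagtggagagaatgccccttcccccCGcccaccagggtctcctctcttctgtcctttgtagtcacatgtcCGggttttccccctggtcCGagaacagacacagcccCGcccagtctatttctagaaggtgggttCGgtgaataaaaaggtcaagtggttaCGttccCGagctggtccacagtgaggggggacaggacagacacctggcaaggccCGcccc
Sox6, start without a peak (chr7:115995087-115995336, minus strand): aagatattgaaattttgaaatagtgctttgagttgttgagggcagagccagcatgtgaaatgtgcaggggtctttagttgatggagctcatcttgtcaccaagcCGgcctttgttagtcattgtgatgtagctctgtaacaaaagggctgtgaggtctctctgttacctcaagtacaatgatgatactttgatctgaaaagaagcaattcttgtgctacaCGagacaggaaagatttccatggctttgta
Sox8 (chr17:25570687-25570936, minus strand): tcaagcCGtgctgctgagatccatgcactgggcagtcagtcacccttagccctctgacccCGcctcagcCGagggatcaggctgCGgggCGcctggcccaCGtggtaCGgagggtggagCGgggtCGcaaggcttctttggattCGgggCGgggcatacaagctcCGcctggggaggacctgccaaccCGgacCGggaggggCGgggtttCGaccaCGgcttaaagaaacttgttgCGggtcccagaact
The printed Sox2 stretch held 27 CG, that of Sox8 18, that of Sox21 17 and that of Sox4 10. The Sox6 start with a peak held 10 CG and the Sox6 start without one held 2.

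RefSeq listed 13 start regions of 300 bases for 8 of the members, 6 of them for Sox6. Peaks of the replicated list lay within 1 kb of 9 of these starts, whose ratio of observed to expected CpG ranged from 0.265 to 1.07. The other 4 starts, of which 3 belong to Sox6 and 1 to Sox5, had no peak, and their ratio ranged from 0.160 to 0.256. Across all 32851 RefSeq promoters the median ratio was 0.384. The start with the lowest ratio among those with a peak was a Sox6 start 214.1 kb into the gene, at 0.265. The ranges of the starts with and without a peak did not overlap, but by a narrow margin, and 6 of the 13 starts belong to Sox6 alone. Of the starts with a peak, those of Sox1 and of Sox6 at position 116038744 had none of their 300 bases in it. Of those without, the Sox6 start at position 115801609 lies 23101 bp from the nearest Sox6 start in GENCODE. The share of all RefSeq promoters with a peak by CpG ratio is not given.

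All 10 members had a promoter peak, defined as a peak within 1 kb of any annotated transcription start site (TSS). This held in the replicated list, where 61.6% of protein-coding genes had one. It also held in the pool C list, with 62.2% of coding genes, and in the pool D list, with 57.9%. The promoters of Sox8 and Sox4 carried the strongest peaks, and those of Sox10 and Sox21 the weakest.

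The Sox8 promoter had a signal of 19.3 in the replicated list (percentile 96.5 of its peaks), 21.3 in pool C and 13.8 in pool D. Sox4 followed with 14.6 (percentile 92.7), 17.8 in pool C and 9.90 in pool D. These 2 genes headed the order in both pools. Sox11 had 10.4, Sox2 10.3 and Sox9 10.2 in the replicated list, at percentiles 86.9, 86.6 and 86.3. Their order was not stable: in pool C the signals were 13.6, 13.5 and 12.1, and in pool D 7.63, 7.76 and 7.76. Sox1 (9.25) and Sox6 (8.79) followed, and exchanged places in both pool lists. Their pool C signals were 11.1 and 11.6, and their pool D signals 5.66 and 7.32. Sox5 had 7.17, with 7.79 in pool C and 5.87 in pool D. Sox10 had 5.90, with 6.56 and 5.24, and Sox21 had 5.86, with 5.22 and 3.78. Sox21 was lowest of the members in both pools, at percentile 55.9 of pool C and 27.8 of pool D. Across the 10 genes the promoter signals of the pools had a Spearman rho of 0.948, a description over genes that share the same libraries.

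**Figure D1:**
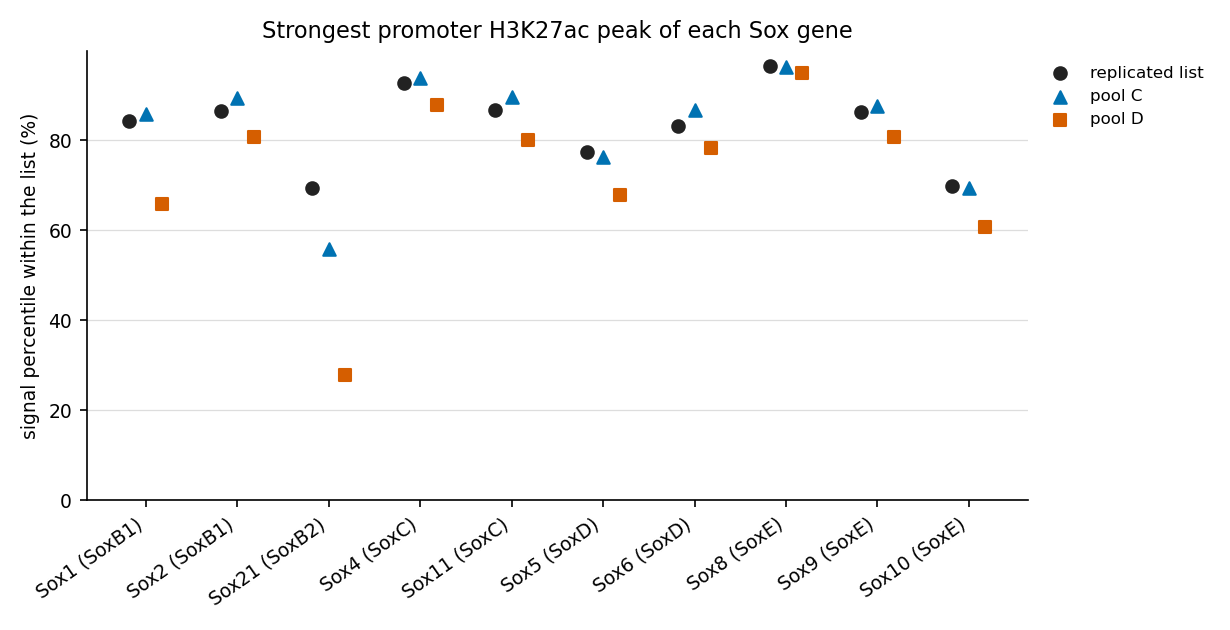
Signal percentile of the strongest promoter peak of each Sox gene (vertical axis, percent of the peaks of the list at or below it) in the replicated list, pool C and pool D, with genes ordered by subgroup on the horizontal axis. Sox8 and Sox4 are highest in every list shown. Sox21 is lowest and differs most between lists, from 69.5 in the replicated list to 27.8 in pool D. These 2 Sox21 values belong to different summits, past the end of the gene in the replicated list and 0.4 kb from the TSS in pool D.

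Against other genes, the promoter peaks of the Sox genes were wide more often than they were strong. The median promoter signal of coding genes with a promoter peak was 13.8, and of the members Sox8 and Sox4 exceeded it. In pool D, where the median was 10.2, Sox8 alone did. Sox8 stood at percentile 76.1 of these gene promoters, Sox4 at 54.2, and Sox10 and Sox21 at 12.1 and 11.8. The widest promoter peak of all 10 members exceeded the coding-gene median of 1796 bp in the replicated list. The widest were those of Sox2 (7927 bp, percentile 98.1), Sox8 (6642 bp), Sox5 (6482 bp) and Sox21 (6356 bp), and the narrowest was that of Sox9 (1984 bp, percentile 56.8). In pool C, 9 members exceeded the median of 1801 bp, and in pool D 7 exceeded the median of 1288 bp. The width at Sox21 was 3833 bp in pool C and 834 bp in pool D, and the width at Sox1 was 3223 bp and 624 bp. At Sox2 it was 7920 bp and 2588 bp, and at Sox5 2518 bp and 2116 bp. The widths of Sox4, at 4713 bp and 4701 bp, and of Sox8, at 5451 bp and 4644 bp, differed less between the pools.

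Sox2 lay within a long stretch of acetylated chromatin. Upstream of its TSS (chromosome 3, position 34650405) a peak of 1943 bp had its summit at 1.0 kb and a signal of 10.3. A peak of 7927 bp began before the TSS and ran over the whole gene, with signal 6.19. The wider neighbours were stronger. A peak of 9224 bp centred 13.7 kb downstream had signal 13.8 in the replicated list, 14.8 in pool C and 10.5 in pool D. Another, of 7028 bp, centred 8.2 kb upstream had 12.5, 12.5 and 8.60, and a peak of 3923 bp 11.8 kb upstream had 11.0, 12.8 and 6.84. These 3 peaks lie at TSSs of noncoding genes, among them Sox2ot, the transcript that overlaps Sox2, and Mir1897. Peaks covered 20.0% of the Sox2 window, at percentile 92.1 of coding genes. Pool C gave 21.8% and pool D 14.96%, the latter at percentile 95.4.

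Sox1 had a smaller domain of the same form. A peak centred 0.4 kb upstream of the TSS had signal 8.33 and one centred 0.7 kb downstream had 9.25. The TSS itself, at position 12395295 of chromosome 8, lay between them, 99 bp from the upstream peak and 364 bp from the downstream one. In pool C the TSS was inside a peak and in pool D it was outside. Outside the promoter, the strongest peak of the replicated list was 91.0 kb downstream with signal 5.67. Pool C had 6.56 there, below a peak 74.9 kb upstream with 6.97, and pool D had 4.82. The window was covered to 9.55% in the replicated list, 10.9% in pool C and 4.29% in pool D.

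Sox21 was marked at its own gene and just past its end, and little further out. Its single promoter peak in the replicated list covered the whole gene body of 3799 bp. The summit of that peak lay 5.7 kb downstream of the TSS, past the end of the gene. The promoter signal of 5.86 is thus that of a peak with its summit outside the gene. In the pool lists a separate peak there counted as distal, with 6.56 in pool C and 4.41 in pool D. The only distal peaks of the window in the replicated list, meaning peaks over 1 kb from any TSS, had signals of 3.71 (49.7 kb upstream) and 3.28 (56.7 kb downstream), and neither was found in pool D. The strongest peaks of the window belonged to other genes near its edge, Tgds (15.1) and Gpr180 (12.1).

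**Figure D2:**
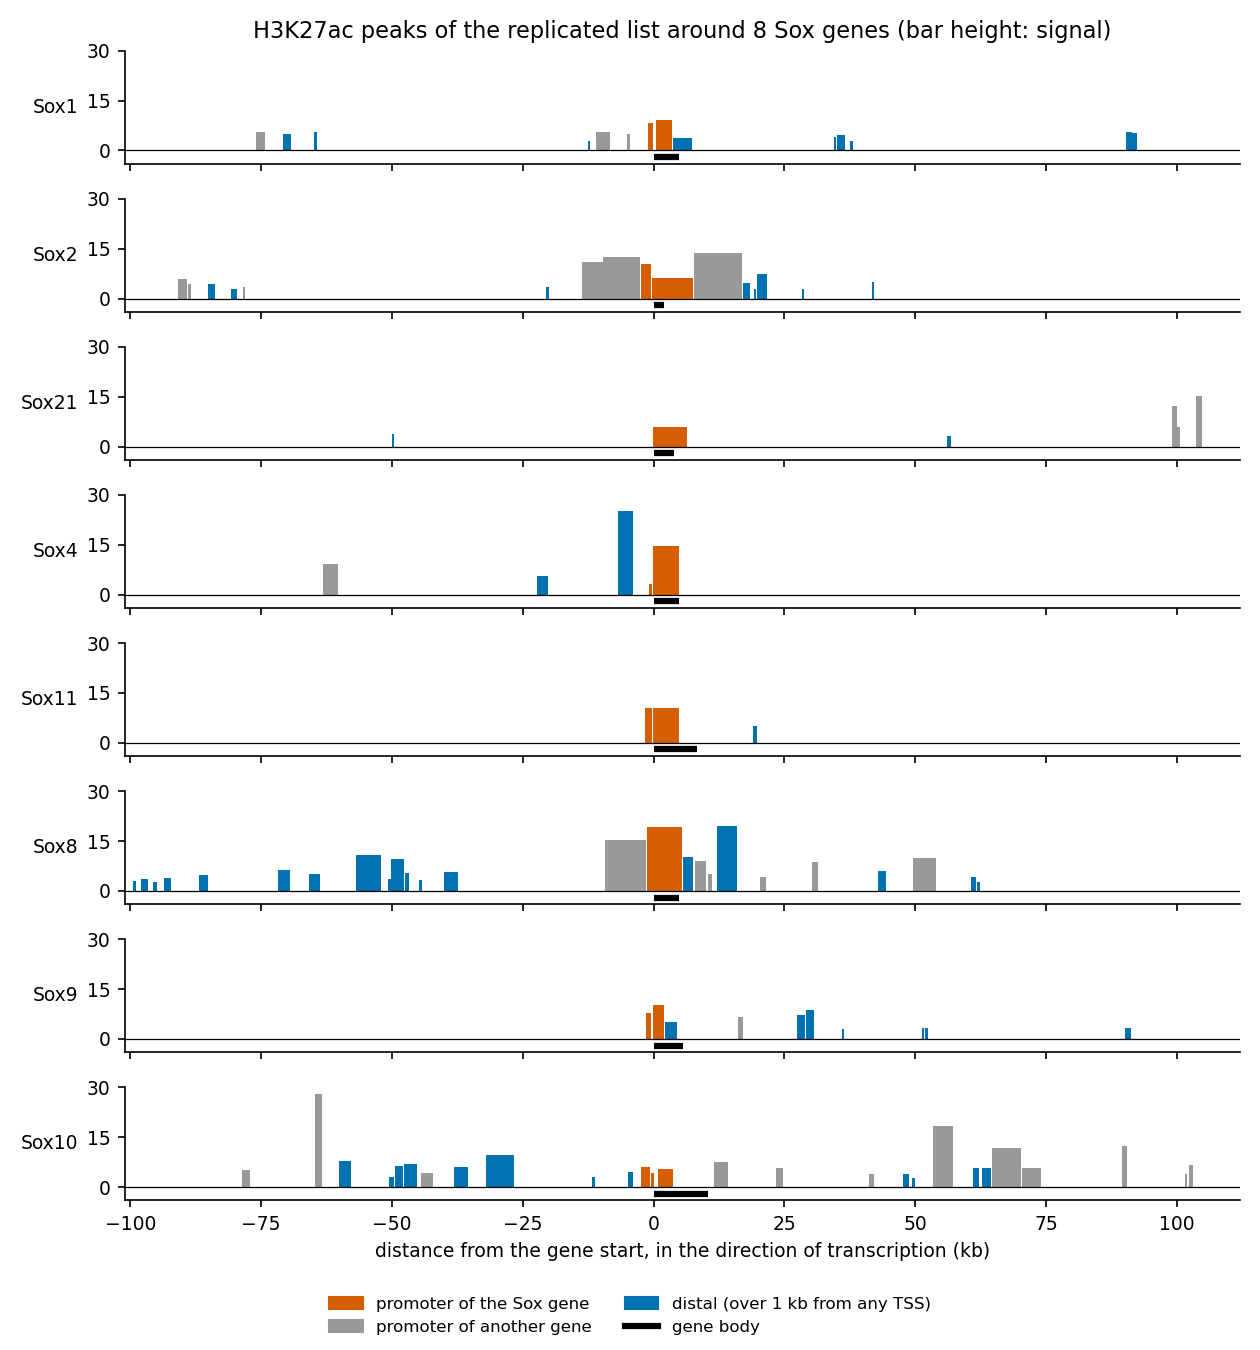
Peaks of the replicated list around the 8 compact Sox genes, by distance from the gene start in kb along the direction of transcription (horizontal axis). Bar height is the authors' signal, bar width the peak width (drawn at 0.4 kb or more), colour the class of the peak and the black line the gene body. Sox4 has a distal peak of signal 25.2 taller than its promoter, Sox2 sits in a nearly unbroken stretch of peaks, and the Sox8 and Sox10 windows hold 25 and 27 peaks.

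The SoxC genes had few peaks in their windows. Sox4 had 5 peaks in its window and Sox11 had 3, and no other coding gene lies in either window. The strongest peak in the Sox4 window was not at the promoter but 5.3 kb upstream of it, between genes, at chr13:28957687-28960495. Its signal was 25.2 in the replicated list, 28.0 in pool C and 19.9 in pool D, at percentiles 98.8, 98.7 and 98.9. In each of these lists it exceeded the Sox4 promoter, at 14.6, 17.8 and 9.90. It was the strongest distal peak in the window of any member. The promoter peak of 4918 bp covered the whole Sox4 gene, which has a single exon. Sox11 had a peak on each side of its TSS, with signals of 10.4 centred 1.0 kb upstream and 10.4 centred 3.0 kb downstream, and a single distal peak, 19.3 kb downstream, with signal 4.97. Peaks covered 6.44% of the Sox4 window and 3.41% of the Sox11 window.

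The SoxD genes are the long members, Sox5 with 953553 bp and Sox6 with 567925 bp, and most of their peaks were intronic. Of the 52 peaks in both windows, 38 lay in introns of the member, 8 at its own starts and 1 in an exon. Starts less than 2 kb apart were joined into clusters, which gave 4 for Sox5 and 9 for Sox6. In Sox5, 3 of 4 clusters had a peak. The cluster 572.4 kb into the gene, where 4 coding transcripts begin, and its neighbour at 577.6 kb shared a replicated peak of 6482 bp with signal 7.17. In the pool lists these clusters had separate peaks, with signals of 7.79 and 6.97 in pool C and 5.87 and 4.95 in pool D. The cluster at the gene start itself, where noncoding transcripts begin, had signal 4.97 in the replicated list and 6.56 in pool C, and no peak in pool D. The cluster 834.9 kb into the gene, with 3 coding transcripts, had no peak in any list.

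In Sox6, 4 of 9 clusters had a peak. The starts 4.3 kb and 7.7 kb into the gene had signals of 8.79 and 8.78 in the replicated list. The start 214.1 kb into the gene had 6.01, with 6.89 in pool C and 4.75 in pool D. The peak counted for the first cluster (5.45) holds none of its starts and lies 433 bp upstream of the nearest one. That peak holds a TSS of another coding gene, 1110004F10Rik. The remaining 5 clusters, at 43.7, 178.9, 192.6, 376.4 and 440.9 kb, had no peak in any of the 4 lists. Coding transcripts begin at 4 of these 5. In Sox5 the strongest peak of the window was an intron peak 600.8 kb into the gene, with signal 8.33 (9.23 in pool C and 5.87 in pool D). Sox6 had no intron peak above 5.01. Pool D held 9 peaks in the Sox5 window against 21 in pool C, and 14 against 28 in the Sox6 window.

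**Figure D3:**
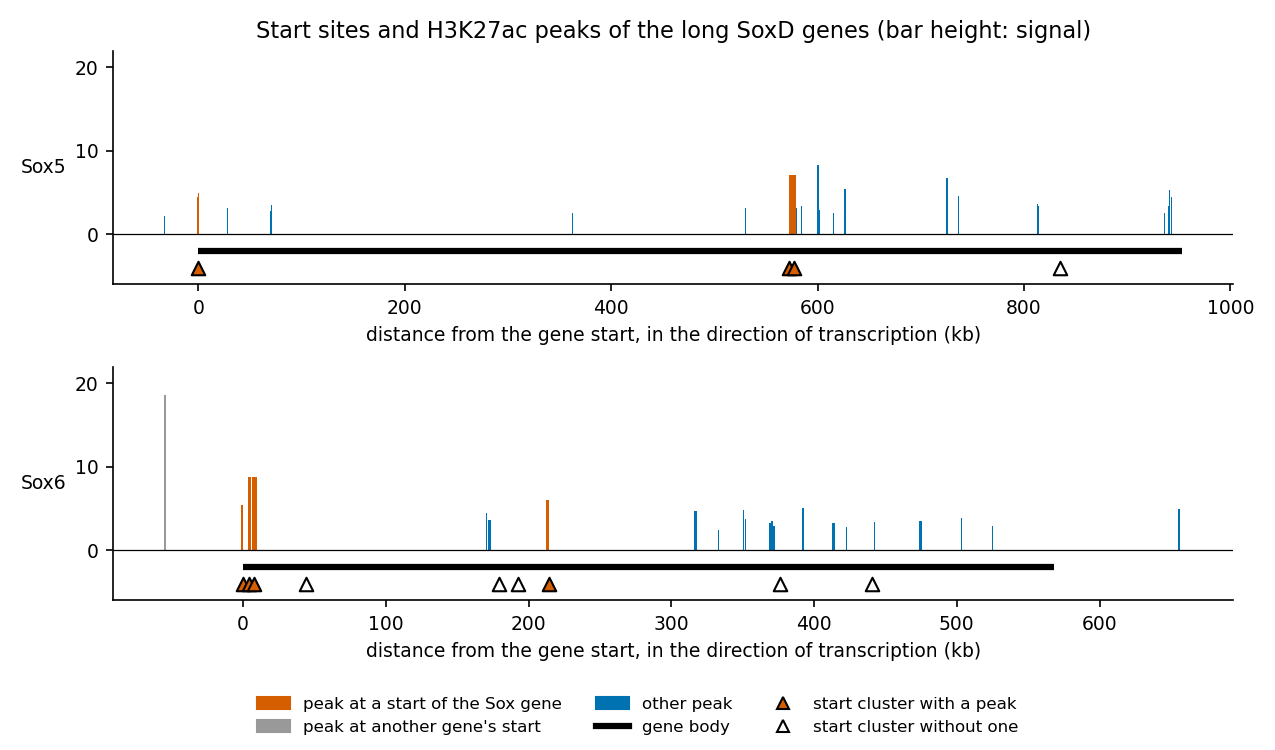
Peaks of the replicated list along Sox5 and Sox6, by distance from the gene start in kb (horizontal axis), with bar height as the authors' signal and triangles for clusters of annotated starts, filled where a peak lies within 1 kb. In Sox5, 3 of 4 clusters are filled, and in Sox6, 4 of 9.

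The SoxE genes held the strongest promoter of the members, that of Sox8, and one of the weakest, that of Sox10. Sox8 had a promoter peak of 6642 bp over its whole gene and a distal peak of nearly the same signal, 19.5, centred 13.7 kb downstream inside the noncoding gene AC131323.3 (chr17:25554694-25558662). That peak had 21.6 in pool C and 14.6 in pool D. The neighbouring promoter of Lmf1 had 15.2, with 18.1 and 8.22. Within Lmf1, further peaks 53.8 kb and 48.1 kb upstream of Sox8 had signals of 10.7 and 9.48. In all, 25 peaks covered 26.6% of the Sox8 window, at percentile 97.1 of coding genes.

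Sox10 had a dense window and a weak promoter. Its 27 peaks covered 24.9% of the window (percentile 96.1), with 26.9% in pool C and 14.5% in pool D (percentile 94.9). The window holds 9 other coding genes, and 12 of the 27 peaks were promoters of other genes. The strongest of these were Pick1 (27.9), Micall1 (18.2) and Eif3l (12.4). Among the distal peaks, the strongest was a 5446 bp peak 27.8 kb upstream, inside the noncoding gene Gm10863, with signal 9.72 (11.7 in pool C and 6.50 in pool D). It exceeded the Sox10 promoter, whose upstream peak (5.90) was not found in pool D. The pool D value of 5.24 is from a peak with its summit 0.9 kb downstream. Genes of the oligodendrocyte lineage, in which Sox10 acts, had promoter signals of 14.2 at Mbp, 6.13 at Mag and 5.55 at Mog. The share of each cell type in these values was not tested.

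Sox9 had 10 peaks over 5.72% of its window, close to the coding-gene median of 5.37%. Its promoter peaks were centred 0.9 kb upstream (7.68) and 0.5 kb downstream (10.2) of the TSS at position 112782224 of chromosome 11. A pair of peaks 28.7 kb and 29.3 kb downstream had signals of 7.35 and 8.68 and was found in both pools. No other coding gene lies in the window. In 4 of the 10 windows of the replicated list, those of Sox4, Sox5, Sox8 and Sox10, the strongest distal peak exceeded the strongest promoter peak of the member. In each pool list there were 5, the same 4 and Sox21. The share of all coding-gene windows with such an excess is not given. At Sox5 in pool D a different peak, 724.8 kb into the gene, had 5.94 against 5.87 at the promoter. At Sox21 a distal peak of 6.56 in pool C lay 5.7 kb downstream of the start against 5.22 at the promoter. In pool D one of 5.03 lay 2.3 kb downstream against 3.78. Both of these places lie inside the wider Sox21 promoter peak of the replicated list.

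Across the members, the covered share of the window ranged from 2.32% at Sox5 to 26.6% at Sox8 in the replicated list. Sox5 had 1.92% in pool C and 0.844% in pool D, and Sox8 had 26.9% and 16.7%. Sox6 had 4.30% and 1.55%, and Sox9 had 6.57% and 3.31%. The members' median was 6.08% against 5.37% for all coding genes in the replicated list, 6.39% against 5.59% in pool C and 3.80% against 3.004% in pool D. In each of these lists 6 of 10 members exceeded the coding median. Sox8, Sox10 and Sox2 were above the coding-gene upper quartile of 11.6%, and the other 7 members lay between the quartiles of 1.56% and 11.6%. The ratio of covered length in pool D to that in pool C had a median of 0.579 over the members and 0.561 over coding genes. It was highest at Sox4 (0.898) and lowest at Sox6 (0.361).

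**Figure D4:**
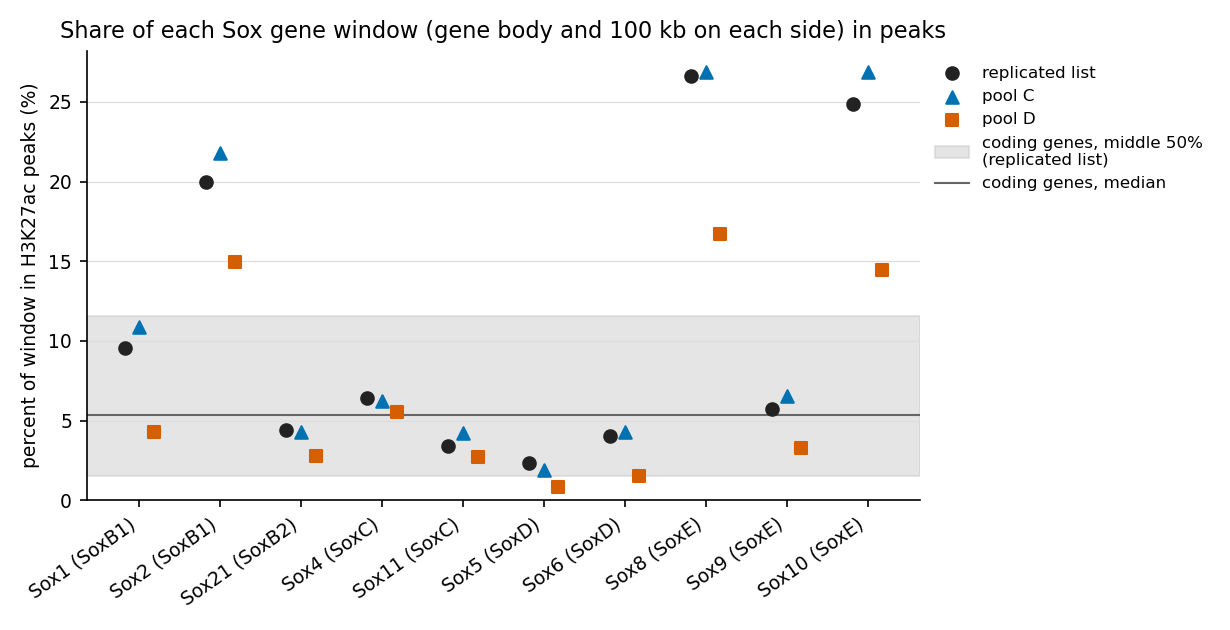
Percent of each Sox gene window (gene body and 100 kb on each side) that lies in peaks (vertical axis), in the replicated list, pool C and pool D. The band is the middle 50% of coding genes in the replicated list (1.56% to 11.6%) and the line their median of 5.37%. Sox2, Sox8 and Sox10 stand above the band in all lists shown.

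Of the 158 replicated peaks in the windows, 23 were at a promoter of the member, 33 at a promoter of another gene, 39 in an intron and 1 in an exon of the member, 31 in another gene and 31 between genes. The 102 peaks that were at no promoter are the distal peaks. In pool C, 73 of 180 window peaks (40.6%, 95% Wilson interval 33.7% to 47.9%) had at least 50% of their length in pool D peaks, against 39.1% of the whole pool C list. In the other direction 143 of 146 (97.9%) were shared, against 96.4% of the whole pool D list. Both values were close to those of their lists. A replicated peak was counted as found in a pool when it overlapped a peak of that pool by 1 bp or more. By this rule 17 of 23 promoter peaks of the members were in both pools, and 47 of 102 distal peaks. The shares over the whole replicated list are not given, so these counts describe the windows only. The 92 peaks in both pools had a median signal of 6.10 and the 41 in pool C alone 3.59. The remaining 25 peaks, 23 of them distal and 2 at member promoters, overlapped no peak of either pool list. Their median signal was 2.89.

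Without the limit of 100 kb, 142 distal peaks had a member as the coding gene with the nearest TSS. Sox9 alone accounted for 53 of these, of which 46 lay beyond 100 kb and the farthest 820.9 kb from its TSS. The coding-gene median was 0, and Sox9 stood at percentile 99.6. The strongest of its far peaks, 350.1 kb downstream inside the noncoding gene 2610035D17Rik, had signal 9.60. Sox5 had 28 such peaks, Sox6 had 20 and Sox2 had 19. For Sox2 the strongest was a peak of 6520 bp 209.2 kb upstream inside Sox2ot, with signal 14.0, which was found in both pools. Sox4 had 7, Sox1 and Sox11 had 5 each, Sox10 had 3, Sox8 had 2 and Sox21 had 0. The counts depended on the list. Sox9 had 58 in pool C and 28 in pool D, Sox5 had 21 and 9, and Sox6 had 21 and 8. Sox4 had 7 and 3, and Sox11 had 9 and 6. Sox10 had 4 and 5, Sox8 had 3 and 5, and Sox21 had 1 and 3. The nearest coding gene need not be the gene that a distal element acts on. When noncoding genes were allowed as nearest genes, the total fell to 35.

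Around the distal summits the letters can be set beside the motif counts. The 300 bases around the summit of the strongest distal peak are shown for 4 subgroups, on the plus strand of GRCm38.p6, for members with a promoter entry. They carry the strongest distal signals of their subgroups within the windows. Capitals mark exact matches, on either strand, to the motifs SOX (ACAATG or ACAAAG), POU octamer (ATGCAAAT), AP-1 (TGACTCA or TGAGTCA), neuronal E-box (CAGATG) and NFI (TTGGCA). The strongest distal peak of Sox21 was not found in pool D and is not printed.
Sox2, 20.4 kb downstream (chr3:34670695-34670994): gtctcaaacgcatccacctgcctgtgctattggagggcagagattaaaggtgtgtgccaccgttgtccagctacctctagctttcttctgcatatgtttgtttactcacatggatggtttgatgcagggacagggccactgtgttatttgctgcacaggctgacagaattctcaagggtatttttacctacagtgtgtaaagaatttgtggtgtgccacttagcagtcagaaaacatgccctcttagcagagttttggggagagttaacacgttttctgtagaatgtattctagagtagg
Sox4, 5.3 kb upstream (chr13:28958898-28959197): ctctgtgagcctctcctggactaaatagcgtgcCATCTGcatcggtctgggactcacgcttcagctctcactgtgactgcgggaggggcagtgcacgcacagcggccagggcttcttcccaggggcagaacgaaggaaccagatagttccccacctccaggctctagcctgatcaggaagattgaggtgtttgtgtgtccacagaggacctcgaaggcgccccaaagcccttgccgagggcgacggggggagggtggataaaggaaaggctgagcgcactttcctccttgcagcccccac
Sox5, intron (chr6:144181048-144181347): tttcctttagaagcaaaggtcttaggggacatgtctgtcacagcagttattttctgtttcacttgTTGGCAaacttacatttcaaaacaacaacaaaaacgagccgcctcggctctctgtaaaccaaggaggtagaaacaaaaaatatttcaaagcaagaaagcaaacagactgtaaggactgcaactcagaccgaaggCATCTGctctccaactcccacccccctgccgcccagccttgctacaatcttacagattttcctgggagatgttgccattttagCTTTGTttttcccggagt
Sox8, 13.7 kb downstream (chr17:25556871-25557170): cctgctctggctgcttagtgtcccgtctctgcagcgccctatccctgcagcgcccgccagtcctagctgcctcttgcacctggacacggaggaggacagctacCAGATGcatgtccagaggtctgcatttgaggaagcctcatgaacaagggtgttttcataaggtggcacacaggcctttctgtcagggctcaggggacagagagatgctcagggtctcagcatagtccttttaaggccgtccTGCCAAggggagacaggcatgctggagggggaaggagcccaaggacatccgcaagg
The Sox5 stretch held a SOX, a neuronal E-box and an NFI match. The Sox8 stretch held a neuronal E-box and an NFI match, and the Sox4 stretch a neuronal E-box match. The Sox2 stretch held none of the motifs searched.

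Within 250 bp of the summit, 53 of the 102 distal peaks of the windows (52.0%, interval 42.4% to 61.4%) held a SOX motif, against 54.3% of all 65346 distal peaks of the list. Matches were found in 17 of 24 distal peaks at Sox5 and 11 of 19 at Sox6, and in 0 of 2 at Sox4. The NFI motif was in 34.3% (interval 25.8% to 44.0%) against 28.7% of all distal peaks. The neuronal E-box was in 43.1% against 40.1%, AP-1 in 11.8% against 10.4% and the POU octamer in 3.92% against 3.35%. The list values lay inside the Wilson interval of the members for each of the 5 motifs.

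Among peaks above the median signal of the list, 15 of 44 distal peaks of the windows (34.1%, interval 21.9% to 48.9%) held a SOX motif, against 53.1% of 25381. The median GC content of these windows was 52.1% against 47.4%, and its part in the difference was not tested. Over all distal peaks the GC medians were 48.6% and 46.2%. In the RefSeq promoters, 7 of 13 member starts held a SOX motif, against 28.6% of all promoters. Of these 7 starts, 5 were among the 6 of Sox6, and the other members had 2 of 7, or 28.6%. The Sox6 start without a peak that is printed above held the most, with 4 matches. A match is a run of letters and not a bound site.

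**Figure D5:**
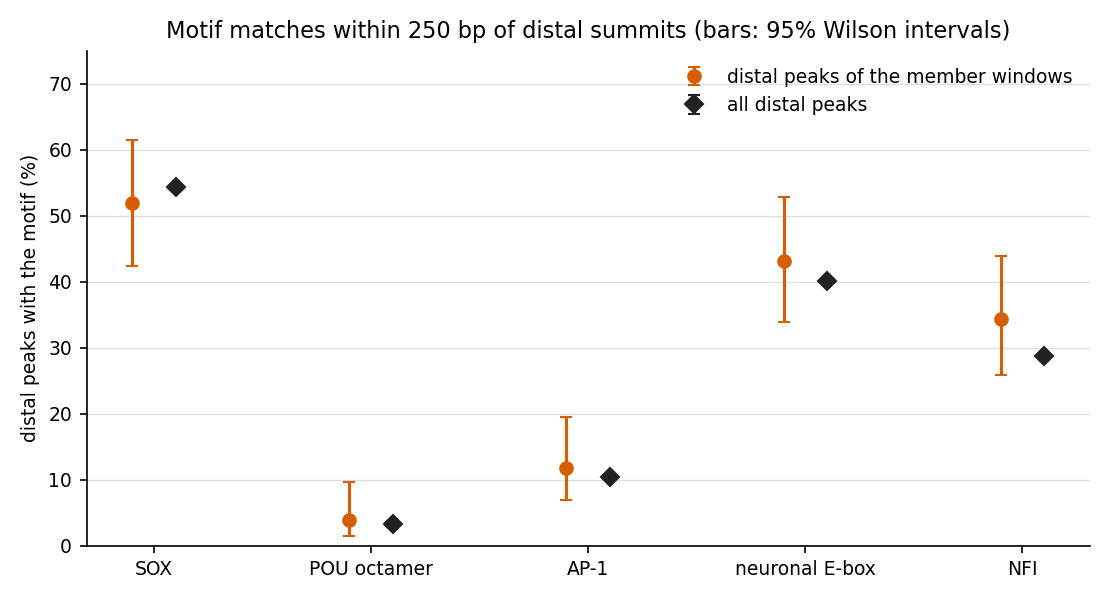
Percent of distal peaks with each motif within 250 bp of the summit (vertical axis), for the 102 distal peaks of the Sox windows and for all 65346 distal peaks, with 95% Wilson intervals that cover counting error. For each motif the interval of the Sox windows includes the value of all distal peaks.

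Of the 10 other Sox genes, a promoter peak was present at 6 in the replicated list, at 7 in pool C and at 5 in pool D. Sox12, which is also a SoxC gene, had a signal of 23.5, above all 10 members. Sox18 (6.90) and Sox17 (4.97), which act in endothelium, and the SoxD gene Sox13 (6.16) also had one. Sox14 and Sox3 had no peak in any list. All 14 of the factors listed as partners of SOX proteins had a promoter peak, led by Hes5 (24.1), a target of Notch signalling, Nfib (22.6), Pou3f3 (22.4) and Nfia (21.4). Of 14 genes known as SOX targets, 13 had one, led by Mbp (14.2), Tead2 (13.2), Stmn2 (13.1) and Tubb3 (12.9). The cartilage collagen gene Col2a1 had none in any list. These lists were chosen with results of the data known, and the 61.6% of coding genes is their background.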

How the data were processed

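H3K27ac ChIP-seq was represented by 4 peak lists on mm10: one replicated between the pools, one of both together, and one each for pool C and pool D. The authors deposited a signal per peak, with its scaling, the aligner and the peak caller not given in the sources used here. Of the deposited p- and q-values, both on a −log10 scale, the latter served only as a filter. The summit was deposited as a distance from the peak start.

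Members were looked up in GENCODE M21. The 10 members, the gene lists and the motifs were chosen with earlier results of these data known. Named genes are all members, up to 4 genes per list with the strongest promoter peak, up to 2 without one, and genes at the 3 strongest peaks of a window. Other genes were named after their values were seen. Some genes of the lists are not reported here. Peaks of the pools were shared when peaks of the other list together overlapped at least 50% of the length. A replicated peak was found in a pool when it overlapped a peak of that pool by 1 bp or more. No statistical test was made. Read totals are unknown, so no depth can be given, and the replicates are pools whose differences can come from depth. Wilson intervals (95%) cover counting error only. Differences of the CAST strain from the reference were not analysed here. No peak ended beyond its GRCm38 chromosome. Overlaps, distances and motif matching were tested on simulated data. Python 3.11.15, numpy 2.4.6, pandas 2.3.3, scipy 1.17.1, matplotlib 3.10.9 and pysam 0.24.0 were used.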

Additional observations from a re-analysis of the deposited data

How the results depend on the processing

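All 10 members kept a promoter peak under every list, TSS window (500 bp and 2.5 kb) and threshold tried, and also with starts of protein-coding transcripts alone, an alternative chosen after seeing the data. With those starts 60.8% of 21866 coding genes had a promoter peak. When the summit itself had to lie within 1 kb of a TSS, 7 members kept one, without Sox8, Sox11 and Sox21. The share of coding genes under the summit rule is not given, so the 7 cannot be set against a background. The 158 window peaks fell to 92 above the median signal, and ranged from 146 to 180 with a pool left out. The median covered share of 6.08% was 9.93% with flanks of 50 kb and 4.11% with 200 kb, and ranged from 3.80% to 6.39% with a pool left out. The share of pool C peaks found in pool D, 40.6%, was 53.9% with an overlap of 1 bp and 29.4% with 50% in both directions. The 142 distal peaks nearest to a member became 62 above the median signal and 35 with noncoding genes allowed, and ranged from 92 to 155 with a pool left out. The SOX motif share of 52.0% was 21.6% within 100 bp of the summit, where all distal peaks had 26.1%. It was 34.1% above the median signal, where all distal peaks had 53.1%. In 500 bp at the peak centre it was 59.8% (interval 50.1% to 68.8%), above the 54.7% of all distal peaks. For single members, 9 promoter percentiles moved by more than the spread of the pools and 61 did not, and 19 covered shares moved and 51 did not. The values with a pool left out are those that define this spread. Percentiles were ranked before filtering, so the q and signal filters returned the same value for every member, as did the 2.5 kb window. With the 500 bp window the Sox2 percentile fell from 86.6 to 71.9. The stronger Sox2 promoter peak ends 513 bp upstream of the TSS and so lies outside that window. The cause of the other shifts was not tested. No paired analysis was possible because the samples form a single group. The unknown depth limits every statement on a missing peak.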
